A study of Mus musculus with 2 samples.

Results

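The proneural and neurogenic basic helix-loop-helix (bHLH) genes examined here were Neurog1, Neurog2, Atoh1, Neurod1, Neurod2, Neurod4, Neurod6, Nhlh1 and Nhlh2, 9 of the 21938 protein-coding genes on the mouse chromosomes. They were taken by name, and their open chromatin was read from DNase-seq of whole midbrain from newborn mice. DNase-seq cuts nuclei with the nuclease DNase I and sequences the released ends, so that a peak marks DNA left accessible by bound regulatory proteins. The labels give 1 group of 2 biological replicates, from healthy B6NCrl mice of age 0 days with males and females pooled. Each replicate is a separate biosample of one donor entry. No treatment, mutant or other tissue was compared, so every value below describes these 2 libraries, and how far they differ through handling alone is unknown.

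Proneural bHLH proteins such as the neurogenins and Atoh1 commit dividing neural progenitors to a neuronal fate. They pair with E proteins, bind the E-box CANNTG, and switch on both Notch ligands and later bHLH factors of the NeuroD and Nhlh families, which act as the young neuron leaves the cell cycle and matures. Hes and Hey repressors, driven by Notch, and Id proteins, which trap E proteins, hold the programme back. In the midbrain, Neurog2 is known for its role in the making of dopaminergic neurons, and most neurons have been born by birth.

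The replicate 1 list held 228203 usable peaks and the replicate 2 list 122593, each 150 bp wide. Each peak carries the authors' signal, a whole number with a median of 44 in replicate 1 and 18 in replicate 2. This signal was not scaled between libraries and is read here only within a list. Sequencing depth is unknown. Of the marker genes checked, 5 of 5 neuronal and 4 of 6 midbrain identity genes (Otx2, En1, En2 and Pax5) had a promoter region, merged as described below, that held a peak of each replicate. At Pax5 only the replicate 1 peak of that region lay within 500 bp of a start (signal 110). Pax2 had a promoter peak in each replicate (71 in replicate 1 and 17 in replicate 2), but not in 1 merged region, and Lmx1b had none. A promoter region with a peak of each replicate was found at 61% of all protein-coding genes. The share of the midbrain identity genes was near that background. None of 3 forebrain or 3 hindbrain and cerebellar genes had a promoter region with a peak of each replicate, although 2 and 3 of them had a replicate 1 promoter peak, and 1 of 6 genes of unrelated tissues did (Krt1). In whole tissue, fewer cells with an open site and less opening per cell cannot be told apart.

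Peaks of the replicates that overlapped by at least 1 bp or touched were merged into regions, and a region holding a peak of each replicate is called shared. A promoter region lay within 500 bp of any transcription start site (TSS) of the gene. By this measure 6 of the 9 bHLH promoters were open in both replicates: Neurod1, Neurod2, Neurod4, Neurod6, Atoh1 and Nhlh2. Over all protein-coding genes 61% had such a region, so the share of the bHLH genes was near the background. In replicate 1 alone all 9 promoters had a peak, against 68.9% of all genes. In replicate 2 alone 6 of 9 had one, against 62.6%. Neurog1, Neurog2 and Nhlh1 were open in replicate 1 only, a state found at 7.03% of all promoters. Hotspots, the wider intervals of the deposited lists, gave the same division, with 9 of 9 promoters in replicate 1 (69.1% of all genes) and 6 of 9 in replicate 2 (62.8%). When each peak of a pair had to overlap the other by 50%, only Neurod2, Neurod4 and Neurod6 kept a shared promoter region, since the strongest peaks of the replicates were offset by 120 bp at Neurod1, 80 bp at Atoh1 and 140 bp at Nhlh2.

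**Figure D1:**
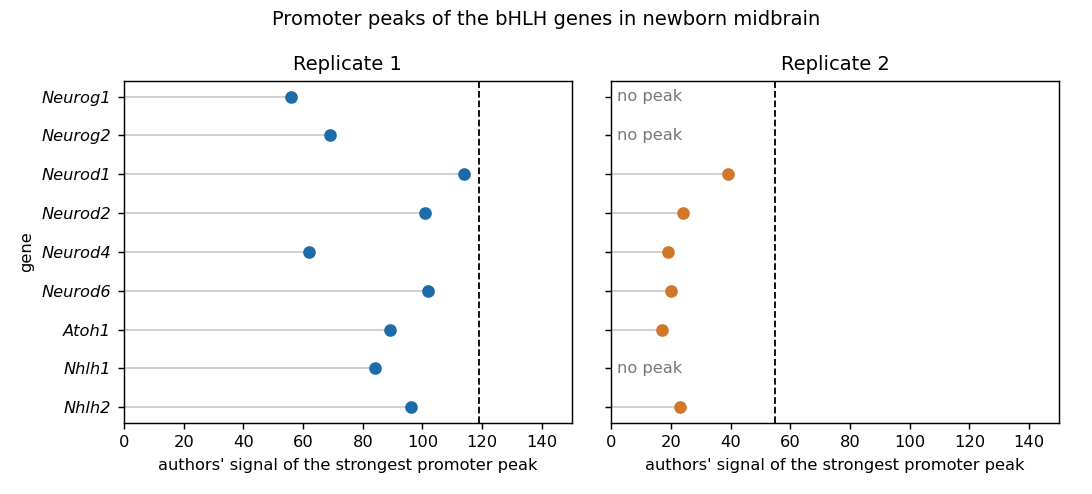
Authors' signal of the strongest peak within 500 bp of a TSS of each bHLH gene, in replicate 1 (left) and replicate 2 (right), with each point 1 peak and the dashed lines at the median of all protein-coding genes with a shared promoter region (119 and 55). Every plotted point lies below its line, and Neurog1, Neurog2 and Nhlh1 have no replicate 2 peak.

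The shared bHLH promoters had low signals for promoters. Their 6 strongest peaks had a median of 98.5 in replicate 1, against 119 for all genes with a shared promoter region. In replicate 2 the median was 21.5, against 55. The highest bHLH signal, that of Neurod1, was below the all-gene median in each library. The genes behind these medians were not matched for CpG content. Observed to expected CpG ratios of the 6 bHLH promoters ran from 0.178 (Nhlh2) to 0.679 (Neurod1), where the median of all protein-coding genes was 0.552. The strongest hotspot class, a −log10 q of 100, was reached at 8 of 9 promoters in replicate 1 (61.7% of all genes) and at 1 of 9, Neurod1, in replicate 2 (50.2%). Neurog1 was the exception in replicate 1, with a −log10 q of 4.40.

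**Figure D2:**
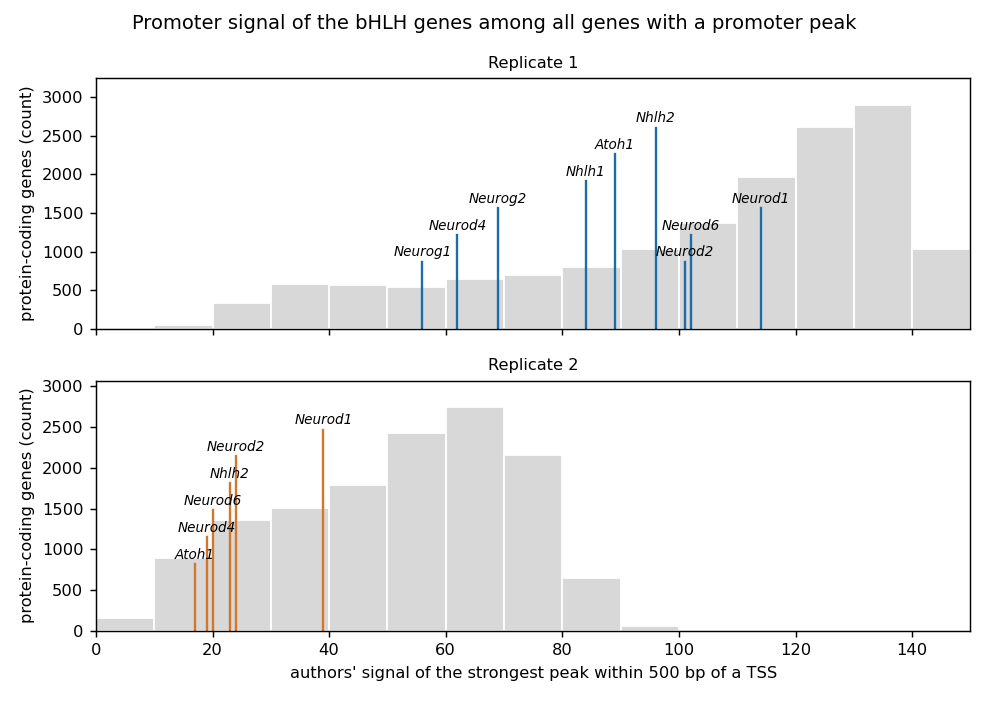
Number of protein-coding genes by authors' signal of their strongest promoter peak (grey bars, width 10), with the bHLH genes marked by vertical lines whose height carries no value, in replicate 1 (top) and replicate 2 (bottom). The bHLH genes run from 56 to 114 in replicate 1 and from 17 to 39 in replicate 2, left of the tallest bars.

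Between the replicates the order of the promoter signals was mostly kept. Of the 15 pairs among the 6 genes with a peak in both, 12 had the same order and 3 the opposite one. Neurod1 led both lists. Neurod6, Neurod2 and Nhlh2 followed closely in replicate 1 (102, 101 and 96) and in replicate 2 (20, 24 and 23). Neurod6 changed place with both others, while Neurod2 stayed above Nhlh2. The spread of a signal within a library was not measured, so how far these neighbours are separated is unknown. Atoh1 and Neurod4 likewise changed places (89 and 62 in replicate 1, 17 and 19 in replicate 2).

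Among the determination factors, Neurog1, which specifies sensory and other early neurons, was the least open. Its gene, on chromosome 13 from 56250478 to 56252163 (mm10, minus strand), had 3 replicate 1 peaks within 10 kb and no replicate 2 peak. A domain without a replicate 2 peak was found at 28.6% of the 7507 genes with domains of like length (21.7 to 32.1 kb). The promoter peak of Neurog1 lay 0.29 kb upstream of the TSS with a signal of 56, above 65.6% of replicate 1 peaks. The other peaks lay 0.85 kb and 7.75 kb upstream with signals of 67 and 59. The nearest shared region was 14.47 kb upstream, outside the domain, with signals of 64 in replicate 1 and 30 in replicate 2.

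Neurog2, the neurogenin known for its part in midbrain dopaminergic neurogenesis, also lacked a replicate 2 promoter peak. Its replicate 1 promoter peaks had signals of 69, 45 and 36 at 0.36 kb upstream and 0.10 and 0.38 kb downstream of the TSS (chromosome 3, 127633135 to 127635631, plus strand). Its single shared region lay 1.13 kb downstream of the TSS, inside the coding exon, with signals of 70 in replicate 1 and 33 in replicate 2. These exceed 77.8% of replicate 1 peaks and 78.9% of replicate 2 peaks. Neurog1 and Neurog2 had the CpG-richest promoters of the set, with observed to expected CpG ratios of 0.756 and 0.851 in the 1000 bp about the 5′ end, where the median gene had 0.552. Of the 5837 genes at or above the ratio of Neurog1, 95.4% had a shared promoter region. This cut-off was set from the value of Neurog1 itself, and those genes were not matched for replicate 1 signal.

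Promoters with a like replicate 1 signal were counted over all genes. Of the 1968 protein-coding genes with a replicate 1 promoter signal from 56 to 84, the range of Neurog1, Neurog2 and Nhlh1, 80.7% had a shared promoter region. Neurod4, at 62, lies in that range and did. The range was set from the values of these 3 genes.

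A shared region of Nhlh2 began in coding sequence like that at the start of the Neurog2 region. The sequences are shown because both open regions begin in the stretch that encodes the bHLH domain, which the family shares. Whether this stretch had a part in either opening was not tested. They are read in mm10 on the plus strand, 5′ to 3′, and capitals mark E-boxes (CANNTG). The Neurog2 run is the whole region, chr3:127634176-127634345. The Nhlh2 run, chr3:102012996-102013058, is the coding part of its region, 63 of 170 bp. The rest of that region, with its midpoint, lies in the 3′ UTR.
Neurog2: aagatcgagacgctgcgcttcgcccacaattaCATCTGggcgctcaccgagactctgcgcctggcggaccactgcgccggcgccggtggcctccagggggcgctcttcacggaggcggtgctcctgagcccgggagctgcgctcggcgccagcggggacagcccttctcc
Nhlh2: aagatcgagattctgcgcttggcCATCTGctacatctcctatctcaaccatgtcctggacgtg
Over the first 20 bases the runs were identical at 18, and over the 63 bases of the shorter run at 41. Each held 1 E-box, CATCTG, which is CAGATG on the other strand. The Nhlh2 site had signals of 86 in replicate 1 and 30 in replicate 2, and its hotspot reached the strongest class in replicate 1 only.

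Atoh1, which specifies granule neurons and other cells of the rhombic lip, had a weak shared promoter and a row of 3 shared sites beyond its 3′ end. The gene lies on chromosome 6 from 64729125 to 64731245 (plus strand). Its promoter peaks had signals of 89 in replicate 1 and 17 in replicate 2, above 88.6% and 44.9% of the peaks in their lists. The mouse gene is known for a 3′ enhancer through which Atoh1 maintains its own expression. The shared sites 4.86, 5.37 and 5.85 kb downstream of the TSS had signals of 53, 84 and 62 in replicate 1. In replicate 2 their signals were 12, 16 and 15, none of which exceeded more than 40.9% of the peaks in the list. In replicate 1 the more distant pair lay in a single hotspot of 774 bp of the strongest class, and in replicate 2 no hotspot of these sites exceeded a −log10 q of 3.16.

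The Atoh1 sequences are shown because 3 of the 14 shared distal regions of the set lie side by side there. All are mm10, plus strand. In the promoter run, chr6:64728956-64729124, which stops before the TSS, capitals mark CACGCG or its reverse complement CGCGTG, a string known to be bound by Hes and Hey repressors. In the 3′ runs (chr6:64733836-64734125, chr6:64734356-64734625 and chr6:64734856-64735085) capitals mark E-boxes.
Atoh1 promoter: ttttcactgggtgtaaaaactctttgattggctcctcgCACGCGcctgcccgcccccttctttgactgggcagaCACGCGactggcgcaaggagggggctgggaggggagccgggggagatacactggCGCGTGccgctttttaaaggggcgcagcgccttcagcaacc
Atoh1 3′ site 1: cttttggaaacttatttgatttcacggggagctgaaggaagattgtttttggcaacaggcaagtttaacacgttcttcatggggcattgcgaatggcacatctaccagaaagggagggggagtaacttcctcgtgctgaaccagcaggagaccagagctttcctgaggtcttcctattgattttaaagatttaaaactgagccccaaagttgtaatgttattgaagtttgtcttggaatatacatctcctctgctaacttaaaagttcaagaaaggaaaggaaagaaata
Atoh1 3′ site 2: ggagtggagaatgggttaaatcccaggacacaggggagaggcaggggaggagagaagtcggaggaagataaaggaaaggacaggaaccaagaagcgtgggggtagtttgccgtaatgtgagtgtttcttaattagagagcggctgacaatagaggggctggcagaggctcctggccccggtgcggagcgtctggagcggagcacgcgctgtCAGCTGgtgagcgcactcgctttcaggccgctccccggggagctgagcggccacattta
Atoh1 3′ site 3: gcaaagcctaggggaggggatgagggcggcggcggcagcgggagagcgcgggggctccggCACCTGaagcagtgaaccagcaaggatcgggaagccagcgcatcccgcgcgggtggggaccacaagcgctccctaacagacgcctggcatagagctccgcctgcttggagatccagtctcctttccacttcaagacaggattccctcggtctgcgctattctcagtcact
The promoter run held CACGCG 3 times, at 131, 95 and 41 bp upstream of the TSS, and no E-box. In the RefSeq promoter table (GRCm38.p6, 250 bp before to 50 bp after a start), 9.27% of 32851 promoters held CACGCG on either strand. Those of Atoh1, with 4 matches, and Neurod1, with 1, were the 2 of the 10 bHLH entries that did. Site 1 had no E-box in 290 bp, site 2 had 1 CAGCTG and site 3 had 1 CACCTG. Site 2 also held 1 CACGCG, left unmarked. In the central 150 bp, CACGCG was present in 2 of the 14 shared distal regions (Atoh1 site 2 and 1 at Neurod2), against 1.96% of all shared distal regions. A match of letters is a description and not evidence of binding.

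Among the NeuroD genes, which act in the differentiation of young neurons, all 4 promoters were shared, against 61% of all protein-coding genes. Neurod1, whose protein is needed for the survival of granule neurons and pancreatic endocrine cells, had the strongest promoter of the set, with signals of 114 in replicate 1 and 39 in replicate 2, above 95.8% and 84.3% of the peaks in their lists. The gene lies on chromosome 2 from 79452521 to 79456751 (minus strand) and overlaps introns of Cerkl, a gene of which an annotated start also lies within 500 bp of the Neurod1 promoter region. Another shared region, 1.41 kb downstream of the TSS in an intron, had signals of 49 in replicate 1 and 15 in replicate 2. The last lay in the coding exon and within 500 bp of a start of the noncoding RNA Gm26755, with signals of 69 in replicate 1 and 22 in replicate 2. The lists carry no strand, so these sites cannot be assigned to one of the overlapping genes.

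Neurod2 and Neurod6, known as markers of excitatory neurons of the forebrain, had promoter signals below the medians of shared promoters in each list. This held for every bHLH gene with a promoter peak. Neurod2 (chromosome 11, 98325415 to 98329648, minus strand) had signals of 101 in replicate 1 and 24 in replicate 2. Neurod6 (chromosome 6, 55677822 to 55681263, minus strand) had 102 in replicate 1 and 20 in replicate 2. Neurod4, which acts with proneural factors in early differentiation (chromosome 10, 130268152 to 130280240, minus strand), had 62 in replicate 1 and 19 in replicate 2. The promoter peaks of Neurod2 and Neurod6 exceeded 92.9% and 93.1% of the replicate 1 list but 65.7% and 55.5% of the replicate 2 list. Every other shared bHLH promoter also ranked lower in replicate 2, among them Atoh1 (88.6% in replicate 1 and 44.9% in replicate 2). The median of all genes with a shared promoter region exceeded 96.6% of the replicate 1 list and 93.2% of the replicate 2 list.

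Outside promoters the NeuroD genes differed. Neurod2 had 2 shared sites, 9.19 and 9.59 kb upstream, with signals of 95 and 60 in replicate 1 and 20 and 18 in replicate 2. Neurod6 had 1, at 4.22 kb downstream of the TSS and past the gene's 3′ end, with 65 in replicate 1 and 19 in replicate 2. Neurod4 had none within its domain, and its nearest shared site over 500 bp from every TSS lay 18.69 kb upstream with signals of 34 in replicate 1 and 16 in replicate 2.

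The promoter runs of Neurod1 (chr2:79456752-79456925) and Neurod2 (chr11:98329649-98329725) are shown because both hold the E-box CATATG, which is rare at promoters. They are the parts of the shared regions upstream of the TSS, on the minus strand of mm10. The upstream Neurod2 site (chr11:98339116-98339365) and the downstream Neurod6 site (chr6:55676956-55677125), also minus strand, stand beside them as examples, 2 of the 4 shared distal regions of the NeuroD genes. Of those not shown, the stronger Neurod2 site, 9.19 kb upstream, held no E-box, and the Neurod1 intron site held 2. Capitals mark E-boxes.
Neurod1 promoter: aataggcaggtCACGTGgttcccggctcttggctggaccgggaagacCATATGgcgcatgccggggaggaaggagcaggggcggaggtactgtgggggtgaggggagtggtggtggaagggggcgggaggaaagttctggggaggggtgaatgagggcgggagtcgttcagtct
Neurod2 promoter: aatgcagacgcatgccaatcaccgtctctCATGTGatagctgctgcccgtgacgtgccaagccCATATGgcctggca
Neurod2 upstream site: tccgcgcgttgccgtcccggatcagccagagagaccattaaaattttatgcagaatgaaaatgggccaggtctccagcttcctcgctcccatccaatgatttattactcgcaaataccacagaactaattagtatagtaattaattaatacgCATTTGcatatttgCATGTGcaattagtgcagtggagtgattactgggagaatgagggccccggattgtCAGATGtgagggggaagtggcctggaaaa
Neurod6 downstream site: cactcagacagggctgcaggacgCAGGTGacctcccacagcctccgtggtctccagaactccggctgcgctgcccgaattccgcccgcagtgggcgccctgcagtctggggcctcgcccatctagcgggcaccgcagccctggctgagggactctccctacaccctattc
CATATG began 127 bp upstream of the TSS in Neurod1 and 14 bp upstream in Neurod2. Among the RefSeq promoters 3.91% held CATATG, and 2 of the 10 bHLH entries did, namely these 2. Any E-box, CANNTG, was held by 7 of the 10 entries, a share near the 72.3% of all. CAGATG was held by 3, against 17.2% of all, and CAGCTG by 2, against 16.3%. CACGTG was held by 0, against 7.15%, since that of the Neurod1 run lay outside its RefSeq window. The Neurod2 upstream run held 3 E-boxes, among them CAGATG, and the Neurod6 run held 1.

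Nhlh1 and Nhlh2, which are expressed in neurons that have just left the cell cycle, both had a replicate 1 promoter peak. They differed in where peaks of both replicates were found. The Nhlh1 promoter (chromosome 1, gene 172052292 to 172057573, minus strand) had a signal of 84 in replicate 1, above 86.3% of that list, and no replicate 2 peak. Its CpG ratio of 0.0700 was the lowest of the 9. Beside the promoter, its strongest regions open in replicate 1 alone had signals of 89, 79 and 71. Of its 13 regions 11 were open in replicate 1 only, and none in replicate 2 only.

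The 2 shared Nhlh1 regions were both distal. One lay 3.33 kb upstream with signals of 65 in replicate 1 and 17 in replicate 2. The other lay 10.47 kb downstream of the TSS with signals of 85 in replicate 1 and 50 in replicate 2, the highest replicate 2 signal of any bHLH gene region, above 91.1% of that list. It was also, beside the Neurod1 promoter, a region whose hotspots reached the strongest class in both replicates. Both runs are on the minus strand of mm10 (chr1:172060816-172060985 and chr1:172047016-172047185), with E-boxes in capitals, and are shown because they are the sites of Nhlh1 found in both libraries.
Nhlh1 upstream site: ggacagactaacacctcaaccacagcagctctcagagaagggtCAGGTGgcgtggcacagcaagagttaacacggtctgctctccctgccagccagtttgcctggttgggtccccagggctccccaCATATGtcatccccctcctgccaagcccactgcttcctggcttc
Nhlh1 downstream site: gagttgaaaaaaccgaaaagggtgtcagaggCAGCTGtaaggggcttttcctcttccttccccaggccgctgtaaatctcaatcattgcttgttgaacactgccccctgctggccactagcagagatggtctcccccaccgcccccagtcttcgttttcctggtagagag
The upstream run held CAGGTG and CATATG, and the downstream run held CAGCTG.

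Nhlh2 (chromosome 3, 102010076 to 102015492, plus strand) had the most shared regions, 5, of which 4 were distal. Its promoter had signals of 96 in replicate 1 and 23 in replicate 2. Shared sites at 0.74 and 1.22 kb downstream of the nearest TSS lay in 5′ UTR sequence, with signals of 64 and 54 in replicate 1 and 24 and 19 in replicate 2. Beyond the site already described at the end of the coding sequence, a last one lay 13.29 kb downstream with 82 in replicate 1 and 14 in replicate 2. One replicate 1 hotspot of 2221 bp ran through the gene body.

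**Figure D3:**
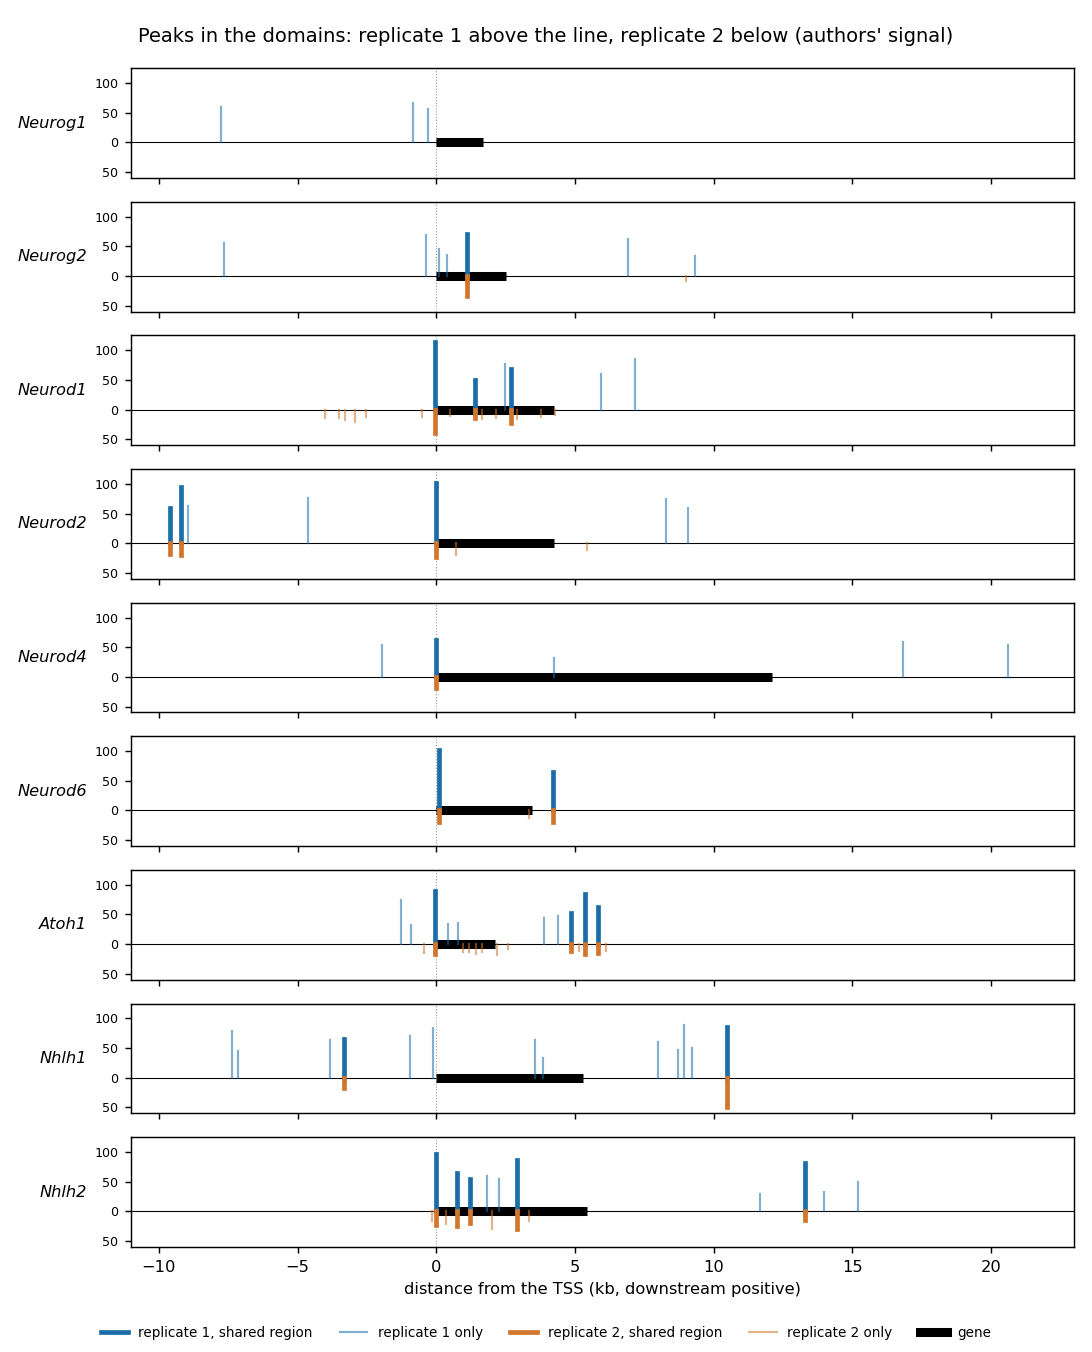
Peaks in the domain of each bHLH gene by distance of the region's midpoint from the TSS (kb, downstream positive), with bar length the authors' signal, replicate 1 above and replicate 2 below the line, shared regions thick and the gene as a black bar. Atoh1 shows 3 shared sites past its end, at 4.86 to 5.85 kb, and Neurog1 shows no replicate 2 bar.

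The domain of a gene, its body with 10 kb on each side, was then searched as a whole. The 9 domains, 221 kb in all, held 63 replicate 1 and 53 replicate 2 peaks, which merged into 92 regions. Of these, 21 were shared, 42 were in replicate 1 only and 29 in replicate 2 only. The shared regions comprised 6 promoter regions, 1 at the start of Gm26755 and 14 distal ones, over 500 bp from every annotated TSS. By gene, shared regions numbered 5 at Nhlh2, 4 at Atoh1, 3 at Neurod1, 3 at Neurod2, 2 at Neurod6, 2 at Nhlh1, 1 at Neurog2, 1 at Neurod4 and 0 at Neurog1. The median of 2 was that of the 7507 genes with domains of like length (quartiles 0 and 4).

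Shared distal regions were found at most of the genes. Of the 9 genes, 7 had at least 1 shared distal region, all but Neurog1 and Neurod4, against 46.3% of the genes of like length and 61.7% of all protein-coding genes. At least 1 shared region of any kind was found at 8 of 9, against 66.4%. Shared distal regions averaged 1.56 per bHLH gene, against 0.889 per gene of like length, and Nhlh2 and Atoh1 held 7 of the 14. No test was made of these differences, since the genes were chosen by name with earlier results known. The distal sites had median signals of 65 in replicate 1 and 18.5 in replicate 2, against 67 and 22 for all 50993 shared distal regions.

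**Figure D4:**
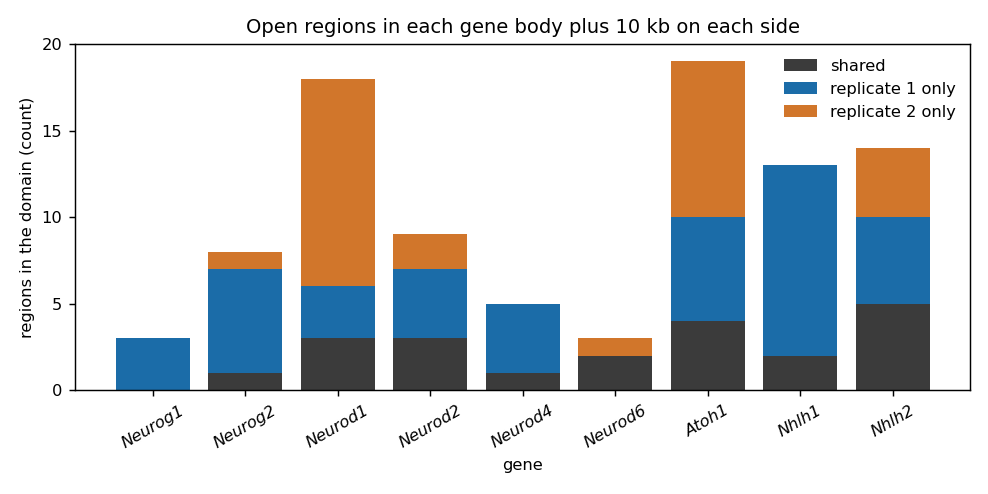
Number of regions in each bHLH gene's domain, stacked by whether both replicates, replicate 1 only or replicate 2 only had a peak. Nhlh1 has 11 regions of replicate 1 only, and Neurod1 has 12 of replicate 2 only.

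Agreement between the replicates differed from gene to gene. In the domains 21 of 63 replicate 1 peaks, 33.3%, lay in shared regions, against 33.6% of all replicate 1 peaks. For replicate 2 it was 22 of 53, 41.5%, against 65.3% of all its peaks. Neurod1, Atoh1 and Nhlh2 held 25 of the 29 regions of replicate 2 only, and 14 of the 42 of replicate 1 only. These 3 were singled out after their values were seen. Replicate 2 had more peaks than replicate 1 in 3 domains, Neurod1 (15 and 6), Atoh1 (15 and 10) and Neurod6 (3 and 2), although its list is the shorter. Such an excess was found at 13.4% of all protein-coding genes.

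Regions of replicate 2 only had signals of 8 to 30 and a median of 15. The whole replicate 2 list had a median of 18, but 65.3% of its peaks lay in shared regions. The replicate 2 median of all shared regions was 24, so these medians describe unlike sets. At Neurod1 the regions of replicate 2 only lay from 4.02 kb upstream to 4.28 kb downstream of the TSS. At Atoh1, 5 of them fell between 0.97 and 2.19 kb downstream. Their peaks had a median GC content of 46.7%, close to the 45.3% of all replicate 2 peaks outside shared regions. Peaks of replicate 1 outside shared regions had 58.7% in the domains, against 49.3% over the genome. Whether base composition had a part in the difference between the libraries was not tested. Regions of replicate 1 only had signals of 30 to 89 with a median of 57, above the median of 44 of its list.

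E-boxes were counted in the central 150 bp of the 14 distal shared regions, on both strands. CANNTG was present in 11, against 61.2% of all shared distal regions. CAGATG, the form preferred by NeuroD and neurogenin proteins, was present in 3 (2 at Nhlh2 and 1 at Neurog2), against 15.3%. CAGCTG was present in 2 (Nhlh1 and Nhlh2), against 14.2%, and CATATG in 1 (Nhlh1), against 2.31%. CANNTG holds all 3 of these strings. With the central 100 bp CANNTG was present in 5 of 14, against 48% of all shared distal regions, and CAGATG in 0 of 14, against 11.2%, so for both the side of the background depended on the window. CAGCTG was then present in 1, against 10% of all. In Atoh1 site 2 the CAGCTG lay outside the central 150 bp.

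Genes of the partners and opponents of these factors were read in the same way. All 3 E protein genes, Tcf3, Tcf4 and Tcf12, had a shared promoter region, with signals of 118 to 138 in replicate 1 and 49 to 68 in replicate 2, above each of the 9 bHLH genes in both lists. All 4 Id genes, Id1, Id2, Id3 and Id4, also had a shared promoter region, at 111 to 142 in replicate 1 and 38 to 75 in replicate 2. Id1 (111 and 38) lay below Neurod1 (114 and 39) in both lists. A shared promoter region was found at 61% of all protein-coding genes. Of 8 Hes and Hey genes 5 had such a region, a share near that background. Among these were Hes1 (119 in replicate 1 and 43 in replicate 2), Hes5 (119 and 45) and Hes6 (131 and 67), while Hes3, Heyl and Helt had none. Hes6, which promotes rather than represses neurogenesis, is the odd member of that family.

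Of 12 other neural bHLH genes 8 had a shared promoter region, a share near the 61% of all protein-coding genes. Among them were Atoh7, known for retinal ganglion cells (93 in replicate 1 and 34 in replicate 2), and Atoh8 (68 and 25). Neurog3, Ptf1a and Olig3 did not, and Ptf1a alone of these had a peak, of 49 in replicate 1. Neurog3, the neurogenin of the endocrine pancreas, and Olig3 had no promoter peak and no shared region in their domains.

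Of 17 genes known as targets of proneural factors 15 had a shared promoter region, against 61% of all protein-coding genes. The Notch ligand genes Dll1 (114 in replicate 1 and 39 in replicate 2) and Dll3 (102 and 40) and the zinc finger gene Insm1 (120 and 51) were among them. Dll4, with 48 in replicate 1 only, and Tbr1, a factor of cortical glutamatergic neurons with no promoter peak, were not. All 17 had at least 1 shared distal region in their domain, against 61.7% of all protein-coding genes, with no matching for domain length. These lists were chosen from knowledge of the pathway with earlier results of these data known, and their counts were not tested.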

How the data were processed

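DNase-seq peaks and hotspots of 2 replicates of newborn mouse midbrain were used as deposited. A descriptive text that the authors deposited states that every list comes from the filtered alignment of 1 replicate on mm10, so peaks were not called on pooled reads. Aligner, caller and versions: not given in the sources used here. Each peak carries a signal, deposited by the authors without a definition. For hotspots the authors deposited a −log10 q value, used here, and a score, not used.

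Replicate 1 had 228440 peaks and replicate 2 had 122838. Peaks off chromosomes 1 to 19, X and Y (215 and 221) and repeats of a position (22 and 24) were dropped. Overlapping or touching peaks were merged, and a region with a peak of each replicate is shared. Gene models were GENCODE M21. Bases were read from RefSeq's copy of mm10 (GRCm38), in which 0 intervals ran past a chromosome end. Promoters were 500 bp on either side of every TSS, domains the gene with flanks of 10 kb. Python 3.11.15 and numpy 2.4.6 were used, and the interval functions were tested on simulated data. With 1 group no test between conditions was possible, and counts are given beside all protein-coding genes, by list order where related genes are named (the first 3 with and the first 3 without a shared promoter region, of which 1 is not reported here). The members and lists were chosen with earlier results of these data known. Alternatives were other windows, overlaps and lists, hotspots, and each library alone.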

Additional observations from a re-analysis of the deposited data

How the results depend on the processing

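The 6 shared promoters were the same genes with promoter windows of 100 bp or 1000 bp, at the 5′ end alone, in hotspots and with the replicate 1 list shortened to the length of replicate 2. They numbered 5 in the stronger 50% of the peaks and 3 with reciprocal overlap of 50%, where the offset between the replicates' peaks decided. With 1 library left out the count ran from 6 to 9. The 21 shared regions became 57 with domains of 50 kb on each side, and with 1 library left out 50 (replicate 2 alone) to 63 (replicate 1 alone), since a partner was no longer required. The 7 genes with a shared distal region ran from 5 (stronger 50% of the peaks) to 9 (50 kb), and from 7 to 9 with 1 library left out. E-boxes were found in 5 of 14 distal regions with the central 100 bp, a shorter search, and in 13 with 300 bp. No paired analysis was possible because the labels give only 1 group. Depth is unknown, so the absence of a replicate 2 peak at Neurog1, Neurog2 or Nhlh1 does not show that the promoter was closed.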
